A study of Mus musculus with 18 samples.

Results

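The glycine receptor and glycine transporter genes were followed across 3 brain regions and 2 genotypes. The set held 6 genes, *Glra1*, *Glra2*, *Glra3*, *Glrb*, *Slc6a5* and *Slc6a9*, chosen by symbol and matched to the identifiers of the gene counts through GENCODE M21. They were 6 of 53468 genes counted, and each matched 1 identifier. At postnatal day 25, poly(A) RNA from each of the regions forebrain, midbrain and hindbrain was sequenced for 3 Fmr1CRE and 3 wild-type littermates, giving 18 libraries with 3 in each group of region and genotype. Fmr1CRE mice carry, on a C57BL/6 background, a single-nucleotide change knocked in by CRISPR/Cas9 in a *cis*-regulatory element assigned to *Fmr1*. Wild-type mice lack the change. Several founder lines were made, and the line used for sequencing is not given in the sources used here. The comparisons answered where in the brain each gene was transcribed and whether its mRNA differed between genotypes.

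Glycine receptors are chloride channels built of alpha subunits, which bind glycine, and of the beta subunit encoded by *Glrb*, which binds the scaffold protein gephyrin and so holds the receptor at inhibitory synapses. *Glra1* encodes the alpha subunit of most adult synaptic receptors in brainstem and spinal cord, *Glra2* the alpha subunit that prevails before birth, and *Glra3* a further alpha subunit. *Slc6a5* encodes GlyT2, which refills the terminals of glycinergic neurons and marks these cells, and *Slc6a9* encodes GlyT1, which clears glycine from the extracellular space, mainly in astrocytes, and lowers it around NMDA receptors. Loss of function of *Glra1*, *Glrb* or *Slc6a5* causes startle disease.

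On GRCm38, *Glra1* (ENSMUSG00000000263) lies at chr11:55514238-55608198 on the minus strand. *Glra2* (ENSMUSG00000018589) lies at chrX:165129017-165327393 on the minus strand, so that it shares its chromosome with *Fmr1*. *Glra3* (ENSMUSG00000038257) lies at chr8:55940460-56130070 on the plus strand and *Glrb* (ENSMUSG00000028020) at chr3:80843599-80913660 on the minus strand. *Slc6a5* (ENSMUSG00000039728) lies at chr7:49910146-49963856 and *Slc6a9* (ENSMUSG00000028542) at chr4:117834506-117875198, both on the plus strand.

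The 2 coding forms of *Glra1* that were given reads differed by a stretch of 24 bases, shown because it lies in the coding sequence. Glra1-202 also starts farther upstream, so that reads there separate the forms as well, and a further coding form, ENSMUST00000108853, was given 0 reads. The stretch lies at chr11:55515104-55515127 of GRCm38, on the minus strand. It is in capitals in Glra1-201 and missing from Glra1-202, with 18 bases to either side.
Glra1-201: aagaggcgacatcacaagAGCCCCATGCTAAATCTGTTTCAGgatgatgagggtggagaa
Glra1-202: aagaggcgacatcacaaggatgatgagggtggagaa
It begins at an exon junction of Glra1-201 and runs on into the exon shared by both forms, in the part for the large intracellular loop. Over the 18 sets of estimated transcript counts pooled, 71.6% of the *Glra1* reads were assigned to Glra1-202 and 28.4% to Glra1-201. The share of Glra1-201 ran from 0 to 61.8% over the sets, with a median of 31.0%. These sets could not be tied to their libraries by label (see the processing of the data), so that no region or genotype is given for them.

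The other genes used few forms. The coding form Glrb-201 took 59.8% of the *Glrb* reads and Glrb-204, annotated as a target of nonsense-mediated decay, took 36.9%. The reads of *Slc6a5* were divided between the coding forms ENSMUST00000207753, with 54.8%, and ENSMUST00000056442, with 45.1%. Slc6a9-202 took 58.0% of the *Slc6a9* reads, ENSMUST00000163288, which starts farther into the gene, took 24.4%, and Slc6a9-201 took 11.1%. *Glra3* was read almost wholly as Glra3-201, with 99.1%, and *Glra2* has 1 annotated transcript.

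The sequences around the starts of *Slc6a5* and *Glrb* are shown because these genes differed most in how regional their mRNA was. Each window runs from 250 bases before the start to 50 bases after it, as RefSeq gives it on GRCm38.p6, with every CG pair in capitals. The *Slc6a5* window is set at 49910299, the start of Slc6a5-204, which took 0.03% of the *Slc6a5* reads. The forms with 54.8% and 45.1% of the reads start at 49910769, outside the window, and at 49910146.
Slc6a5, chr7:49910049-49910348, plus strand: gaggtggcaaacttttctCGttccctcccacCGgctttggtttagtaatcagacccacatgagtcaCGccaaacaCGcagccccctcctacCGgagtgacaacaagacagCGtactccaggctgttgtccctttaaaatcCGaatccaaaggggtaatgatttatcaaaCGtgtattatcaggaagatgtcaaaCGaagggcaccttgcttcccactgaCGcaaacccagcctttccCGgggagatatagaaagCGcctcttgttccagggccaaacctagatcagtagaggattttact
Glrb, chr3:80913611-80913910, minus strand: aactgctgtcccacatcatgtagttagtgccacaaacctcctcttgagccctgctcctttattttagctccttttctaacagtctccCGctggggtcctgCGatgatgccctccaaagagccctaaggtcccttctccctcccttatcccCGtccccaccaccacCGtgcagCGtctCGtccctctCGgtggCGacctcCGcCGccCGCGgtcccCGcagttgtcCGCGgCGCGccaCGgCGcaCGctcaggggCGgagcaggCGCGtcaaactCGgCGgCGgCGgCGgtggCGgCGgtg
The *Slc6a5* window held 12 CG pairs and the *Glrb* window 30. Of all 32851 windows of the same length, 39.6% held at least 12 and 11.7% at least 30, and the median window held 7. The windows of *Glra3* and *Glra2* held 8 and 9, the 3 windows of *Slc6a9* held 10, 14 and 8, and a further *Slc6a5* window held 7. A window of *Glra1* was not used here. The CG pair was searched by its letters C and G on the printed strand, which gives the same count on the other strand.

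The gene counts summed to 22455512 to 28061185 per library. Region labels were checked against marker genes. All 10 forebrain markers were lower in hindbrain than in forebrain, 10 of 10 midbrain markers were higher in midbrain than in forebrain, and all 14 *Hox* genes of the brainstem were higher in hindbrain than in either other region (edgeR's quasi-likelihood test). The midbrain markers were less distinct against hindbrain, where 8 of 10 were lower than in midbrain and 1, *Otx2*, was higher. In hindbrain 6 of these 10 were higher than in forebrain and 1 was lower. The forebrain markers were less distinct in midbrain, where 6 of 10 were lower than in forebrain with a median log2 fold change of -0.75, and their sum was 263 to 453 CPM in midbrain, 528 to 1076 CPM in forebrain and 16.8 to 33.9 CPM in hindbrain. *Fmr1* ran from 51.1 to 83.4 CPM (counts scaled to library size) over the 18 libraries, and its mean was 75.8 in Fmr1CRE and 77.7 in wild-type forebrain. The forebrain library of Fmr1CRE 1 stood apart, with 278 CPM over *Slc32a1*, *Gad1* and *Gad2* against 564.5 to 615 in the other forebrain libraries, 528 against 754 to 1076 CPM over the forebrain markers and 3366 against 5024 to 7180 CPM over the astrocyte genes. In replicate 3, forebrain differed in part from midbrain and hindbrain in which mouse expressed a gene. Genes were sought that had 20 or more normalized counts in 1 mouse of a replicate number and 2 or fewer in the other, in both midbrain and hindbrain. The rule requires midbrain and hindbrain to go the same way, so it cannot tell which libraries differ from their labels. The labels were kept. Replicate 3 had 15 such genes, of which 7 went the opposite way in forebrain and 2 the same way. For replicate 1 the same rule found 9 genes, of which 1 was opposite and 6 the same, and for replicate 2 it found 10 genes, of which 3 were opposite and 2 the same. The forebrain comparison of genotypes, the sums over regions and the interaction are therefore given with and without both samples of replicate 3.

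Across regions, hindbrain had the highest mean of 4 genes, *Slc6a5*, *Glra1*, *Slc6a9* and *Glrb*, and midbrain that of *Glra2* and *Glra3*, although *Slc6a9* did not pass the test against midbrain (adjusted p = 0.0553 from edgeR) nor *Glra2* in midbrain against forebrain (adjusted p = 0.289 from edgeR). In hindbrain against forebrain, 4 of 6 genes were higher and 1, *Glra2*, was lower (edgeR's quasi-likelihood test on 18 libraries, Benjamini-Hochberg adjusted p under 0.05). Of all 20363 genes tested, 25.3% were higher and 26.4% lower in that comparison. At least 2-fold higher were 3 of the 6 genes, against 8.06% of all genes. In midbrain against forebrain, 4 genes were higher and 0 lower, against 9.96% and 9.38% of all genes, and 3 were at least 2-fold higher, against 2.27%. In hindbrain against midbrain, 3 were higher and 2 lower, against 24% and 25.1% of all genes, and 2 were at least 2-fold higher, against 6.27%. The median log2 fold change of the 6 genes was 1.08 in hindbrain against forebrain, 1.08 in midbrain against forebrain and 0.37 in hindbrain against midbrain, whereas over all genes the medians were 0.01, -0.02 and 0.03. The calls for single genes between regions stayed when the replicate 3 mice were left out.

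**Figure D1:**
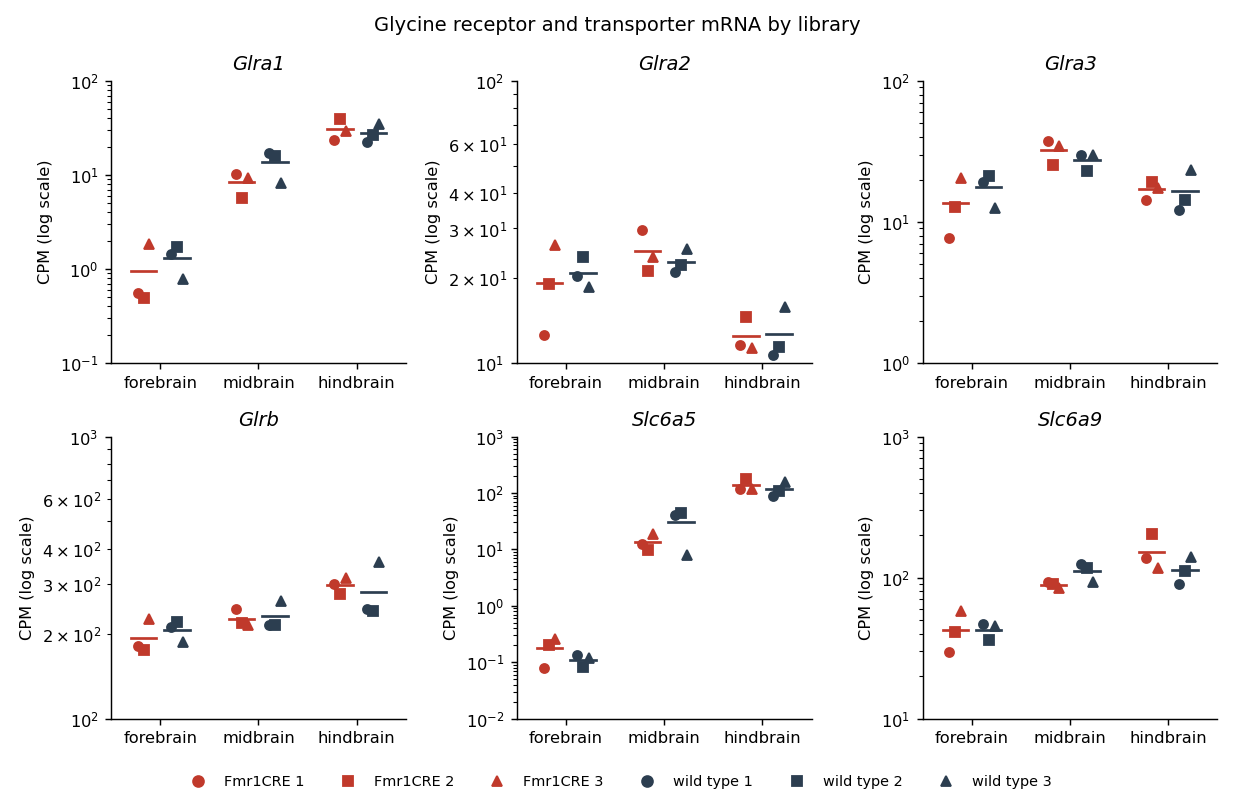
CPM of each gene in the 18 libraries, on a log axis whose range differs between panels. Points are libraries, the marker shape gives the replicate number, and bars are group means. *Slc6a5* spans from 0.0790 to 174 CPM over the libraries, whereas *Glrb* spans from 174.5 to 360 CPM.

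*Slc6a5*, the marker of glycinergic neurons, had the steepest gradient of the set. Its forebrain libraries held 2, 5 and 6 reads in Fmr1CRE and 3, 2 and 3 in wild type, 21 reads in all, or 0.0790 to 0.256 CPM with a median of 0.125. The midbrain libraries ran from 8.08 to 44.9 CPM with a median of 15.5, and the hindbrain libraries from 87.2 to 174 CPM with a median of 118. No library of a region overlapped one of another region. Hindbrain exceeded forebrain by 9.77 on the log2 scale (SE 0.51, adjusted p = 2.67e-10 from edgeR), 871-fold with a 95% interval of 409 to 1856. The size of that fold rests on the 21 forebrain reads. Midbrain exceeded forebrain by 7.15 (SE 0.52, adjusted p = 2.49e-07 from edgeR) and hindbrain exceeded midbrain by 2.62 (SE 0.31, adjusted p = 5.86e-06 from edgeR). Only 10 of the 20363 genes had a higher log2 fold change in hindbrain against forebrain, and 7 in midbrain against forebrain. In pieces of tissue, fewer cells that express a gene and less of its RNA in each cell cannot be told apart.

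*Glra1*, the adult alpha subunit, followed the same order. It had 12 to 43 reads per forebrain library, from 0.494 to 1.83 CPM with a median of 1.12. In midbrain it ran from 5.73 to 17.1 CPM with a median of 9.77, and in hindbrain from 22.6 to 39.0 CPM with a median of 28.2. The regions did not overlap. Hindbrain exceeded forebrain 26.1-fold with an interval of 16.3 to 41.6 (log2 fold change 4.70, SE 0.32, adjusted p = 5.08e-09 from edgeR). Midbrain exceeded forebrain 9.55-fold with an interval of 6.05 to 15.1 (log2 fold change 3.26, SE 0.31, adjusted p = 3.78e-06 from edgeR). Hindbrain exceeded midbrain 2.73-fold with an interval of 1.86 to 4.01 (log2 fold change 1.45, SE 0.26, adjusted p = 0.000287 from edgeR).

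*Slc6a9*, which encodes the transporter found mainly in glia, was well expressed in every region. Its forebrain libraries ran from 29.8 to 57.6 CPM with a median of 43.2, its midbrain libraries from 83.8 to 125 CPM with a median of 93.4, and its hindbrain libraries from 89.8 to 202 CPM with a median of 127. Forebrain lay below both other regions in every library, and midbrain and hindbrain overlapped. Hindbrain exceeded forebrain 3.08-fold with an interval of 2.40 to 3.94 (adjusted p = 7.47e-07 from edgeR), and midbrain exceeded forebrain 2.33-fold with an interval of 1.83 to 2.98 (adjusted p = 0.000127 from edgeR). Hindbrain against midbrain gave 1.32-fold with an interval of 1.03 to 1.68 and did not pass the adjustment (log2 fold change 0.40, adjusted p = 0.0553 from edgeR), and over the alternatives its adjusted p ran from 0.0128 to 0.893. Of 10 astrocyte genes, 3 were higher and 3 lower in hindbrain than in forebrain, with a median log2 fold change of -0.03. All 8 oligodendrocyte genes were higher there, with a median of 1.17, and their summed level was 13017 to 16586 CPM in forebrain and 29936 to 42004 CPM in hindbrain. Over all genes 25.3% were higher and 26.4% lower in hindbrain than in forebrain, and the astrocyte counts lie near these shares. The part of these cell types in the *Slc6a9* difference was not tested.

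*Glrb*, the beta subunit, was the most abundant and the most even of the 6 genes. It ran from 174.5 to 225 CPM in forebrain with a median of 199, from 214 to 261 CPM in midbrain with a median of 216.5, and from 241 to 360 CPM in hindbrain with a median of 288. Hindbrain lay above forebrain in every library and overlapped midbrain. The hindbrain mean exceeded the forebrain mean 1.45-fold with an interval of 1.24 to 1.69 (log2 fold change 0.53, adjusted p = 0.000482 from edgeR). It exceeded the midbrain mean 1.27-fold with an interval of 1.09 to 1.48 (log2 fold change 0.34, adjusted p = 0.0129 from edgeR), a call that ended without Fmr1CRE 3 (0.30, adjusted p = 0.0541 from edgeR) and in wild-type libraries alone (0.30, adjusted p = 0.167 from edgeR). Midbrain against forebrain gave a log2 fold change of 0.19 with an interval of -0.03 to 0.41 (adjusted p = 0.223 from edgeR).

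*Glra2*, the alpha subunit of the immature brain, went the other way. It ran from 12.6 to 26.2 CPM in forebrain with a median of 19.7, from 20.96 to 29.6 CPM in midbrain with a median of 23.0, and from 10.7 to 15.8 CPM in hindbrain with a median of 11.5. Every midbrain library lay above every hindbrain library, while forebrain overlapped both. Its hindbrain mRNA was lower than in forebrain by 0.67 on the log2 scale (-0.67, SE 0.16, adjusted p = 0.00203 from edgeR) and lower than in midbrain by 0.92 (-0.92, SE 0.16, adjusted p = 0.000175 from edgeR). Midbrain against forebrain gave 0.25 with an interval of -0.08 to 0.58 (adjusted p = 0.289 from edgeR).

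*Glra3*, the remaining alpha subunit, peaked in midbrain. It ran from 7.66 to 21.2 CPM in forebrain with a median of 16.0, from 23.1 to 37.5 CPM in midbrain with a median of 29.8, and from 12.1 to 23.2 CPM in hindbrain with a median of 15.9. Midbrain lay above forebrain in every library, and only the hindbrain library of wild-type 3 reached the lowest midbrain value. Midbrain exceeded forebrain by 0.94 on the log2 scale (SE 0.22, adjusted p = 0.00675 from edgeR) and hindbrain was lower than midbrain by 0.83 (-0.83, SE 0.22, adjusted p = 0.00483 from edgeR). The midbrain excess over forebrain was 0.64 in wild-type libraries alone and did not pass there (adjusted p = 0.165 from edgeR). Hindbrain and forebrain differed by 0.11 with an interval of -0.36 to 0.57 (adjusted p = 0.708 from edgeR). *Glra4*, a related alpha subunit gene outside the set, had 2 to 28 reads per library and did not exceed 1.11 CPM.

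**Figure D2:**
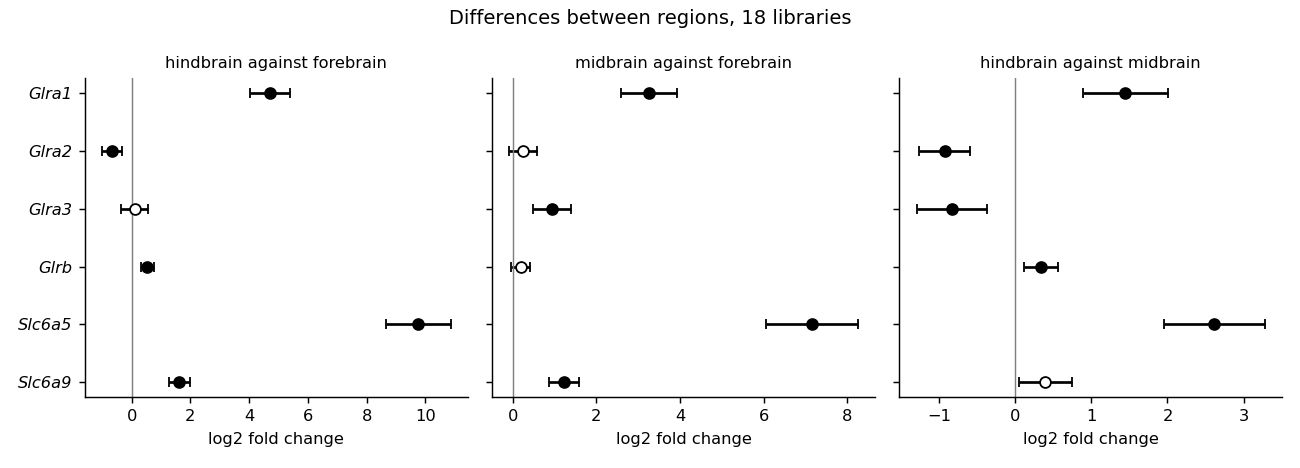
Log2 fold change of each gene between regions with its 95% confidence interval, from the fit of 18 libraries. Filled points passed an adjusted p of 0.05 and open points did not. *Slc6a5* and *Glra1* lie to the right in all 3 panels, *Glra2* lies left of 0 in both comparisons of hindbrain, and the open points are *Glra3* in hindbrain against forebrain, *Glra2* and *Glrb* in midbrain against forebrain, and *Slc6a9* in hindbrain against midbrain.

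Levels were compared between genes as CPM per kilobase of effective transcript length. In forebrain the order of the means was *Glrb* (96.2 ± 10.4, SD, n = 6), *Slc6a9* (20.4 ± 4.55), *Glra2* (8.26 ± 1.93), *Glra3* (3.68 ± 1.28), *Glra1* (0.505 ± 0.267) and *Slc6a5* (0.0211 ± 0.0104). No neighbours in that order overlapped. In midbrain the order of the means was the same, with *Glrb* at 109.7, *Slc6a9* at 48.0, *Glra2* at 9.82, *Glra3* at 7.02, *Glra1* at 4.91 and *Slc6a5* at 3.25 CPM per kilobase. The last 4 genes overlapped with their neighbours there, and *Glra3* exceeded *Glra1* in 4 of 6 libraries. In hindbrain *Slc6a5* (18.4 ± 4.66, SD, n = 6) and *Glra1* (13 ± 2.87) moved up to the third and the fourth place, behind *Glrb* (139 ± 21.8) and *Slc6a9* (63.5 ± 18.5). They were followed by *Glra2* (5.17 ± 0.861) and *Glra3* (3.93 ± 0.957). The ranges of *Slc6a5* and *Glra1* overlapped, as did those of *Glra2* and *Glra3*, although in both pairs the higher gene was the higher one in 6 of 6 libraries.

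The make-up of the alpha subunit mRNA was compared within each mouse. On the same scale per kilobase, *Glra1* made up 1.98 to 4.96% of the sum of *Glra1*, *Glra2* and *Glra3* in forebrain, 14.7 to 32.7% in midbrain and 56.1 to 62.1% in hindbrain. Its share was 54.8 points higher in hindbrain than in forebrain (SD 2.76 over mice, n = 6), 36.4 points higher in hindbrain than in midbrain (SD 8.47) and 18.4 points higher in midbrain than in forebrain (SD 7.19), in 6 of 6 mice each time. *Glra2* made up 61.9 to 71.8% in forebrain, 37.2 to 50.6% in midbrain and 21.4 to 25.9% in hindbrain, and its share was lower in hindbrain than in forebrain in 6 of 6 mice. The share of *Glra3* was 24.9 to 33.4% in forebrain, 25.1 to 36.6% in midbrain and 16.3 to 19.9% in hindbrain. Each of these differences in the shares of *Glra1* and *Glra2* had a p of 0.0312 in a two-sided exact permutation test over the mice. That is the smallest p that 6 mice allow. After adjustment over the family of 30 tests on shares it was 0.0781, which is above 0.05. The family includes tests of 3 against 3 that cannot go below 0.1, so no adjusted p in it could fall under 0.05.

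Of the transporter mRNA, *Slc6a5* made up 0.0676 to 0.152% in forebrain, 2.57 to 10.4% in midbrain and 20.5 to 25% in hindbrain. The share was 22.5 points higher in hindbrain than in forebrain (SD 1.73 over mice, n = 6, exact permutation p = 0.0312, adjusted 0.0781). The log2 ratio of summed alpha subunit mRNA to *Glrb* mRNA was -3.00 ± 0.32 (SD, n = 6) in forebrain, -2.34 ± 0.20 in midbrain and -2.67 ± 0.25 in hindbrain, so that beta subunit mRNA exceeded that of the 3 alpha subunits in every library. Midbrain exceeded forebrain in this ratio by 0.65 in 6 of 6 mice (exact permutation p = 0.0312, adjusted 0.0781), and hindbrain exceeded forebrain by 0.33 in 5 of 6 (exact permutation p = 0.0625, adjusted 0.144).

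**Figure D3:**
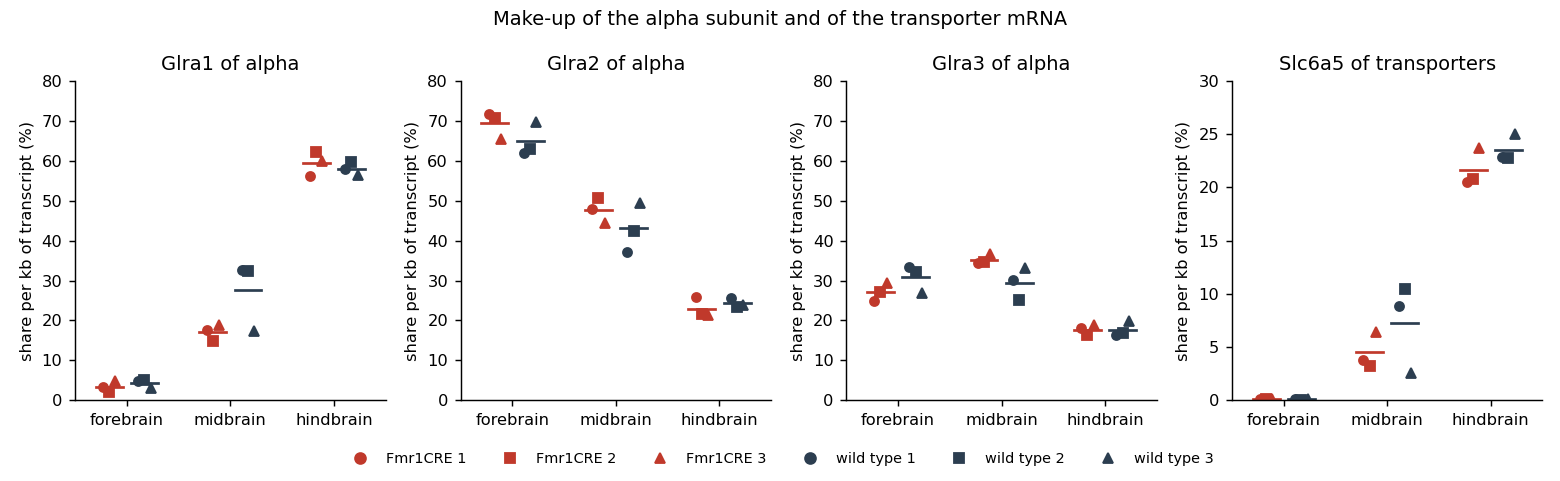
Share of each alpha subunit gene in the summed alpha subunit mRNA, and of *Slc6a5* in the transporter mRNA, in percent per kilobase of transcript. Points are libraries and bars are group means. The *Glra1* share stands at 1.98 to 4.96% in forebrain and 56.1 to 62.1% in hindbrain, and the midbrain libraries of wild-type 1 and 2 stand above the other midbrain libraries.

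The midbrain libraries differed among themselves in *Slc6a5* and *Glra1*. *Slc6a5* stood at 12.2, 9.94 and 18.8 CPM in Fmr1CRE 1, 2 and 3 and at 40.2, 44.9 and 8.08 CPM in wild-type 1, 2 and 3. *Glra1* stood at 10.1, 5.73 and 9.39 CPM in the Fmr1CRE libraries and at 17.1, 15.7 and 8.32 CPM in the wild-type libraries. The libraries of wild-type 1 and 2 were thus the highest in both genes, and that of wild-type 3 was the lowest in *Slc6a5*. The midbrain values of *Slc6a5* were 6.39 to 35.5% of its hindbrain mean and those of *Glra1* 19.5 to 58.3%. The 14 *Hox* genes, which mark parts of the brainstem behind the midbrain, summed to 0.343 to 6.32 CPM in midbrain, or 0.194 to 3.58% of their hindbrain mean. Their highest sum was in wild-type 1 and their lowest in wild-type 3, and 11 of the 14 were higher in midbrain than in forebrain. In every midbrain library *Slc6a5* and *Glra1* reached a larger share of their hindbrain mean than the *Hox* genes did. The *Hox* genes mark only parts of that tissue, and its part in the midbrain values was not tested. Genes of cerebellar granule and Purkinje cells differed less, with median log2 fold changes of 1.02 and 0.86 in hindbrain against midbrain. *Slc6a5* and *Glra1* gave 2.62 and 1.45 there.

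Cerebellar genes were present in the midbrain libraries as well. The 8 genes of cerebellar granule cells summed to 329, 726 and 422 CPM in Fmr1CRE midbrain and to 420, 680 and 632 CPM in wild-type midbrain, against 140 to 200 CPM in forebrain and 754 to 1546 CPM in hindbrain. The 8 Purkinje cell genes summed to 767 to 1539 CPM in midbrain, against 441 to 716 CPM in forebrain and 1278 to 2483 CPM in hindbrain. Both sums were highest in Fmr1CRE 2 among the midbrain libraries. The part of tissue from neighbouring regions in the midbrain values of *Slc6a5* and *Glra1* was not tested.

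**Figure D4:**
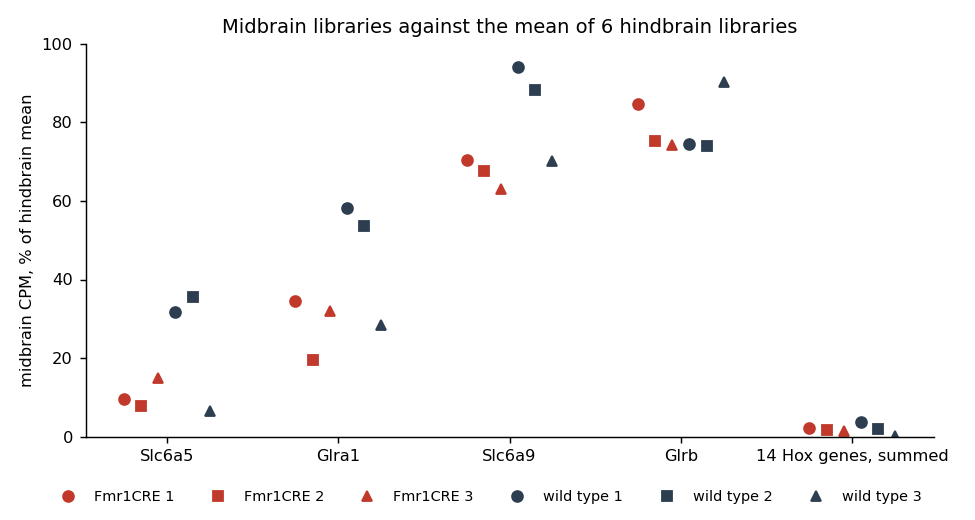
CPM in each midbrain library as a percentage of the mean of the 6 hindbrain libraries, for 4 genes and for the sum of 14 *Hox* genes. *Slc6a5* stands at 6.39 to 35.5%, *Glra1* at 19.5 to 58.3%, *Slc6a9* at 63.0 to 94.3% and *Glrb* at 74.1 to 90.4%. The *Hox* sum stands at 0.194 to 3.58%, and cerebellar genes are not drawn.

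Genes that work with glycine receptors and transporters were counted by their role. Of 10 genes of the gephyrin scaffold at inhibitory synapses, 1 was higher and 5 were lower in hindbrain than in forebrain, with a median log2 fold change of -0.23. Over all genes 25.3% were higher and 26.4% lower, with a median of 0.01. The higher gene was *Vasp* (0.60, adjusted p = 0.00369 from edgeR), a binding partner of gephyrin. The lower ones included *Nlgn2*, the neuroligin of inhibitory synapses (-0.94, adjusted p = 2.42e-05 from edgeR). *Gphn* itself, which encodes gephyrin, was 58.9 ± 5.33 CPM (SD, n = 6) in forebrain, 64.7 ± 6.38 CPM in midbrain and 67.1 ± 6.49 CPM in hindbrain (hindbrain against forebrain, 0.19, adjusted p = 0.0873 from edgeR).

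*Slc32a1*, the vesicular transporter that loads both glycine and GABA, ran from 46.4 to 125 CPM in forebrain with a median of 117, lowest in Fmr1CRE 1, and from 117 to 154 CPM in hindbrain with a median of 130 (0.33, adjusted p = 0.129 from edgeR). *Gad2*, which makes GABA, was lower in hindbrain than in forebrain (-0.78, adjusted p = 0.000746 from edgeR) and *Gad1*, its partner enzyme, gave -0.06 (adjusted p = 0.718 from edgeR). Of the chloride carriers, *Slc12a5*, which encodes the extruder KCC2, was lower in hindbrain than in forebrain (-0.58, adjusted p = 0.00039 from edgeR), and *Slc12a2*, which encodes the importer NKCC1, was higher (0.86, adjusted p = 7.17e-06 from edgeR).

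Of 11 genes of serine and glycine metabolism, 6 were higher and 2 lower in hindbrain than in forebrain, with a median log2 fold change of 0.31, and 7 were higher and 2 lower in hindbrain than in midbrain. Over all genes the shares were 25.3% and 26.4% against forebrain and 24% and 25.1% against midbrain. *Slc7a10*, an exchanger of small neutral amino acids including glycine and D-serine in astrocytes, rose from 36.8 ± 6.49 CPM in forebrain to 61.5 ± 7.04 CPM in hindbrain (0.74, adjusted p = 4.56e-05 from edgeR). *Gldc*, the decarboxylase of the glycine cleavage system, was lower in hindbrain (35.3 ± 8.87 CPM in forebrain and 14.6 ± 2.29 CPM in hindbrain, -1.25, adjusted p = 3.29e-06 from edgeR). Its partners *Amt*, *Gcsh* and *Dld* were higher there, by 0.31, 0.42 and 0.53. *Srr*, which makes D-serine, was lower by 0.87 (-0.87, adjusted p = 3.2e-06 from edgeR). Of 7 genes listed for inhibitory neurons of the brainstem, 5 were higher in hindbrain than in forebrain, against 25.3% of all genes. These were *Pax2*, *Lhx1*, *Lhx5*, *Skor1* and *Chrna2*. Against midbrain, 3 of the 7 were higher in hindbrain and 1 was lower, with a median log2 fold change of -0.02. There *Lhx1* gave -0.02 and *Chrna2* -0.06. In midbrain against forebrain 6 of the 7 were higher, against 9.96% of all genes, so the list does not set hindbrain apart from midbrain. *Slc6a7* was lower in hindbrain than in forebrain (-1.27, adjusted p = 1.32e-06 from edgeR) and than in midbrain (-1.68). Its levels do not mark it as a gene of brainstem neurons.

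For each gene the 3 protein-coding genes of most similar pattern were found by the root mean square difference of log2(CPM + 0.5) over the 18 libraries, after each gene was centred on its mean. The libraries share their region, so that similarity over them is a description. *Glra1* was most like *Spp1* (0.39), *Mab21l2* (0.49) and *Klk6* (0.55), which all rose from forebrain to hindbrain. *Glra2* was most like *Rab3c* (0.11), *Vstm2a* (0.15) and *Prkacb* (0.16). *Glra3* was nearest to *Usp29* (0.20), *Grb10* (0.20) and *Zcchc12* (0.21). *Glrb* was nearest to *Crbn* (0.069), *Omg* (0.079) and *Ghitm* (0.079), and *Slc6a9* to *Sgpp2* (0.19), *Slco3a1* (0.20) and *Asah2* (0.23). The genes nearest to *Slc6a5* were *Pcp2* (1.02), *Cbln3* (1.13) and *Gabra6* (1.13), which mark cerebellar neurons, at distances far above those of the other genes. *Pcp2* had mean levels of 0.359, 52.3 and 165 CPM in forebrain, midbrain and hindbrain. Within the set, *Glra1* was the 13th nearest gene to *Slc6a5* (1.44), and *Glra2* and *Glra3* were 0.39 apart.

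Between genotypes, none of the 6 genes passed the test in any region. In forebrain 5 genes could be tested, since *Slc6a5* was removed by the filter on low counts, and 0 passed (edgeR's quasi-likelihood test, adjusted p under 0.05), against 0% of 18467 genes. In midbrain 0 of 6 passed, against 0.00543% of 18400 genes, and in hindbrain 0 of 6, against 0% of 19112 genes. In sums over the 3 regions of each mouse, 0 of 6 passed, against 0.00451% of 22191 genes. Without both mice of replicate 3, a choice made after the data were seen, 0 of 6 passed in the sums, where edgeR called 0 of 22402 genes and 1311 had an unadjusted p under 0.05, and the log2 fold changes ran from -0.09 for *Glra1* to 0.22 for *Slc6a9*. At an unadjusted p under 0.05 there were 0 of the set in forebrain, 1 in midbrain, 0 in hindbrain and 0 in the sums, and 1002, 1135, 981 and 820 genes in all. DESeq2 called 0 of the set in each, and 31, 62, 59 and 26 genes in all. In every region the genotypes overlapped for all 6 genes, counting *Slc6a5*, which was not tested in forebrain. Of all genes tested, 10.3%, 11.3% and 10.9% had no overlap in forebrain, midbrain and hindbrain. For 6 genes, 0 without overlap is close to those shares.

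The unadjusted pass in midbrain was *Slc6a9*. It stood at 93.6, 89.9 and 83.8 CPM in Fmr1CRE 1, 2 and 3 and at 125, 117 and 93.2 CPM in wild-type 1, 2 and 3. Only the lowest wild-type and the highest Fmr1CRE library overlapped. The log2 fold change was -0.33 with an interval of -0.60 to -0.05 (edgeR, unadjusted p = 0.0254, adjusted p = 0.803). In hindbrain the same gene gave 0.41 with an interval of -0.11 to 0.93 (adjusted p = 0.875 from edgeR), with 137, 202 and 117 CPM in Fmr1CRE and 89.8, 110.5 and 141 CPM in wild type. In forebrain it gave 0.03 with an interval of -0.48 to 0.53 (adjusted p = 0.986 from edgeR).

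*Slc6a5* and *Glra1* had the largest log2 fold changes of the set in midbrain. *Slc6a5* was 13.7 ± 4.61 CPM (SD, n = 3) in Fmr1CRE and 31.0 ± 20.02 CPM in wild type, a log2 fold change of -1.17 with an interval of -2.47 to 0.13 (adjusted p = 0.813 from edgeR, exact permutation p = 0.4). *Glra1* was 8.42 ± 2.36 CPM (SD, n = 3) in Fmr1CRE and 13.7 ± 4.74 CPM in wild type, a log2 fold change of -0.70 with an interval of -1.41 to 0.02 (adjusted p = 0.806 from edgeR, exact permutation p = 0.3). The differences were larger without wild-type 3 and smaller without wild-type 1 or 2. Without wild-type 3 they were -1.64 for *Slc6a5* (adjusted p = 0.221 from edgeR) and -0.96 for *Glra1* (adjusted p = 0.29 from edgeR), without wild-type 1 they were -0.95 and -0.52, and without wild-type 2 they were -0.80 and -0.58. The *Hox* sum moved with *Slc6a5* in wild type only in part, at 6.32, 3.39 and 0.343 CPM in wild-type 1, 2 and 3 and 3.71, 2.73 and 2.65 CPM in Fmr1CRE 1, 2 and 3, and 2 of the 3 *Hox* genes that could be tested gave higher values in Fmr1CRE. Of other lists, 8 of 8 Purkinje and 8 of 8 granule cell genes gave lower values in Fmr1CRE midbrain. Their median log2 fold changes were -0.41 and -0.24. Lower there too were 7 of 7 genes listed for brainstem inhibitory neurons, *Slc6a7* among them (-0.35), and 8 of 10 midbrain markers (-0.34). All 7 choroid plexus genes gave higher values (0.50). None of the genes in these lists passed an adjusted p of 0.05 in edgeR, and the median over all genes was -0.0046. Genes of a list can move together, so the counts do not weigh as separate results. In hindbrain 8 of 8 granule cell genes, 4 of 8 Purkinje cell genes and 3 of 7 of the brainstem list gave higher values. Among the genes with lower values in midbrain, *Pax2* gave -1.20 (edgeR, unadjusted p = 0.00641, adjusted p = 0.751) and *Pax7* -1.06 (edgeR, unadjusted p = 0.00482, adjusted p = 0.751). Both were chosen after their values were seen. The part of the *Hox* genes and of these lists in the difference was not tested.

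In hindbrain the genotypes were closer. *Slc6a5* was 137 ± 32.6 CPM (SD, n = 3) in Fmr1CRE and 116 ± 34.6 CPM in wild type (0.23, interval -0.30 to 0.75, adjusted p = 0.917 from edgeR), and *Glra1* was 30.6 ± 7.85 and 28.1 ± 6.24 CPM (0.12, interval -0.38 to 0.62, adjusted p = 0.956 from edgeR). *Glrb* gave 0.07 with an interval of -0.31 to 0.45, *Glra2* -0.02 with -0.46 to 0.42 and *Glra3* 0.04 with -0.53 to 0.60. In midbrain *Glrb* gave -0.03 with an interval of -0.30 to 0.24, *Glra2* 0.12 with -0.24 to 0.48 and *Glra3* 0.24 with -0.17 to 0.64. These intervals give the sizes that 3 mice against 3 leave possible, and a p above the threshold does not show equal levels. An exact permutation test of 3 against 3 cannot go below 0.1.

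In forebrain *Glra1* stood at 0.553, 0.494 and 1.83 CPM in Fmr1CRE 1, 2 and 3 and at 1.45, 1.73 and 0.783 CPM in wild-type 1, 2 and 3. The libraries of replicate 3 lay outside the range of the other libraries of their own genotype, Fmr1CRE 3 above and wild-type 3 below. The library of Fmr1CRE 1, which was also the lowest in its inhibitory neuron genes, forebrain markers and astrocyte genes, had the lowest forebrain value of *Glra2*, *Glra3* and *Slc6a9*, and the part of that in the results was not tested. *Glra3* had the same layout, with 7.66, 12.8 and 20.7 CPM in Fmr1CRE and 19.3, 21.2 and 12.6 CPM in wild type. The log2 fold changes over all 6 libraries were -0.45 for *Glra1* (interval -1.73 to 0.84, adjusted p = 0.868 from edgeR) and -0.35 for *Glra3* (interval -1.13 to 0.44, adjusted p = 0.838 from edgeR). Without both forebrain libraries of replicate 3, a choice made after the data were seen, they were -1.54 (adjusted p = 0.256 from edgeR) and -0.94 (adjusted p = 0.286 from edgeR). In the same setting *Glra2* gave -0.43, *Glrb* -0.22 and *Slc6a9* -0.18, against -0.10, -0.06 and 0.03 with all libraries. With 2 libraries against 2, none of the 5 passed an adjusted p of 0.05 in edgeR, where 0 of 18763 genes did and 2545 had an unadjusted p under 0.05.

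**Figure D5:**
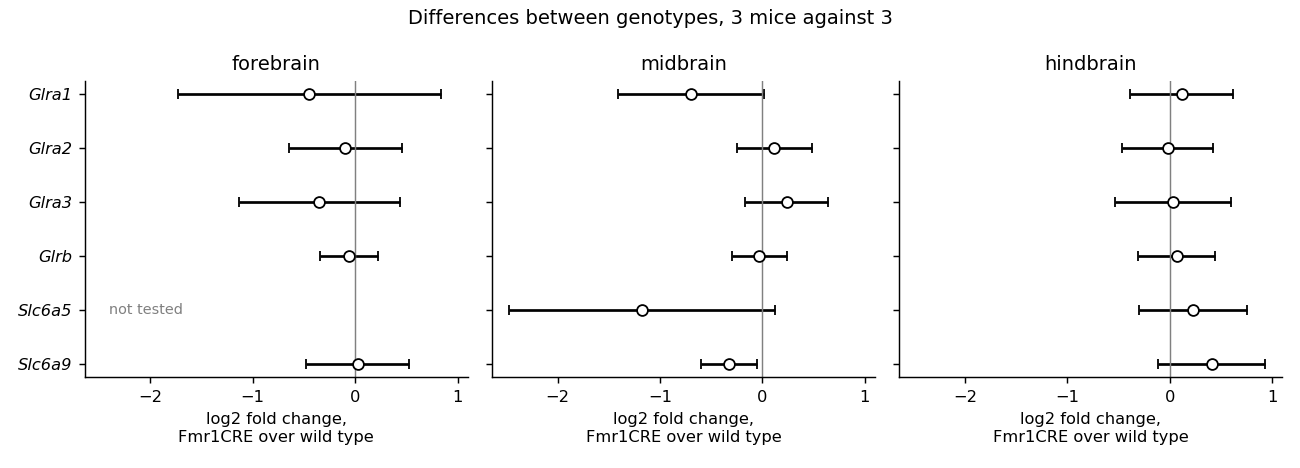
Log2 fold change of each gene in Fmr1CRE over wild type in each region, with its 95% confidence interval from edgeR. Open points did not pass an adjusted p of 0.05, and *Slc6a5* was not tested in forebrain. The interval of *Slc6a9* in midbrain, -0.60 to -0.05, is the one that leaves out 0.

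The difference between genotypes was also compared between regions. In a fit of all 18 libraries 0 of 6 genes passed the test of the interaction of genotype and region (edgeR, adjusted p under 0.05), against 0% of 20363 genes. At an unadjusted p under 0.05 there were 0 of the set and 1535 genes in all. The lowest p of the set was that of *Slc6a5* (unadjusted p = 0.0734, adjusted p = 0.666 from edgeR), followed by *Slc6a9* (0.105 and 0.678). Without both mice of replicate 3, *Slc6a5* passed (adjusted p = 0.0316 from edgeR), where 0.636% of 20602 genes did. Without Fmr1CRE 3 alone its adjusted p was 0.384 and without wild-type 3 alone 0.249. This fit ignores that regions came from shared mice. The *Glra1* share in midbrain was 10.4 points lower in the Fmr1CRE mean (-10.4, exact permutation p = 0.3, adjusted 0.409), and the *Slc6a5* share of transporter mRNA there was 2.81 points lower (-2.81, exact permutation p = 0.4, adjusted 0.522). The *Glra3* share there was 5.86 points higher (exact permutation p = 0.1, adjusted 0.214), the lowest p of the genotype tests on shares. It ran from 34.5 to 36.6% in Fmr1CRE and from 25.1 to 33.0% in wild type, without overlap.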

How the data were processed

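Poly(A) RNA of 18 libraries, 3 per region and genotype, was sequenced as single-end 50-base reads in 2 pools of 9, and which library was in which pool is not given in the sources used here. The authors ran bcbio-nextgen, quantified transcripts with Salmon (0.14.0 in the submitters' processing notes) against mm10 and deposited gene-level raw counts with values transformed by DESeq2 (1.30.1), of which the transformed values were not used here. The authors also deposited Salmon's estimated counts per transcript, TPM values and effective lengths. By their gene totals, 2 of 18 transcript sets were closest to the library of the record they are attached to, while the 18 sets had 18 distinct closest libraries, so the sets were used only pooled or as ranges. Measured columns left unused in the count table numbered 0. Whether reads were assigned by strand is not given in the sources used here.

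CPM values are the deposited counts divided by the library total after TMM scaling in edgeR 4.0.16 (R 4.3.3). Effective lengths were averaged by TPM over all sets. Genes were filtered by filterByExpr and tested with edgeR's quasi-likelihood test on the whole table, with Benjamini-Hochberg adjustment over all genes tested. Genotypes were compared within each region and on counts summed per mouse, regions over the 18 libraries, and genotype by region as an interaction. Regions of a mouse are true pairs, and a fit with the mouse as a block was an alternative. Shares were tested by two-sided exact permutation over mice. The labels name 3 mice per genotype. The authors give both genotypes as coming from the same litter, so p-values measure the spread between these mice. Members and gene lists were chosen with earlier results of these data known. All 6 genes were described, with counts and examples for the lists of related genes and the 3 genes of nearest pattern for each. In tests on simulated data with 200 genes changed by 1.5 on the log2 scale, 100% were called in the comparison of 3 against 3 over 19240 genes. The simulated data had the same spread for every gene, and only genes with higher counts were changed. They do not give the power for the 6 genes, such as *Slc6a5* between genotypes in midbrain with an SE of 0.56. Alternatives were DESeq2 1.42.0, its size factors, library totals, other filters, blocks, wild-type libraries alone and leaving out libraries or mice. The values of 1 gene of the lists are not reported here.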

Additional observations from a re-analysis of the deposited data

How the results depend on the processing

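The counts of genes called in the set stayed within 1.5 times their value under every alternative run, with 1 exception. Without both mice of replicate 3, the interaction of genotype and region called 1 gene, *Slc6a5*, where all libraries gave 0. For single genes, 237 of the alternative values between regions kept their direction and side of the threshold, 7 newly passed, 3 no longer passed and 2 reversed, and between genotypes 273 kept both and 31 reversed, none of them past the threshold. The 7 new passes were all *Slc6a9* in hindbrain against midbrain, with adjusted p of 0.0321 by DESeq2, 0.047 with DESeq2's size factors, 0.0128 with library totals and 0.022 with a minimum of 10 counts, and on leaving out Fmr1CRE 1, Fmr1CRE 3 or wild-type 1. With single mice left out, hindbrain against midbrain called 5 to 6 genes. The cause of these changes was not tested.

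With the replicate number as a block, *Slc6a9* in forebrain gave -0.0060, and no other direction or call changed under a replicate or mouse block. Correlations of same-numbered libraries of the 2 genotypes ran from -0.12 to 0.069, so the numbers were not taken as pairs. Without both forebrain libraries of replicate 3 *Slc6a9* gave -0.18 there, and in wild-type libraries alone *Glra3* gave -0.089 in hindbrain against forebrain. With 1 library left out, that value of *Glra3* ran from -0.15 to 0.31. In the same way the genotype differences in forebrain ran from -0.36 to 0.12 for *Glra2*, -0.16 to 0.0084 for *Glrb* and -0.22 to 0.21 for *Slc6a9*. In midbrain they ran from -0.033 to 0.22 for *Glra2* and -0.10 to 0.074 for *Glrb*. In hindbrain they ran from -0.085 to 0.29 for *Glra1*, -0.14 to 0.17 for *Glra2*, -0.14 to 0.35 for *Glra3* and -0.030 to 0.28 for *Glrb*. In the sums per mouse they ran from -0.21 to 0.0081 for *Glra1*, -0.044 to 0.092 for *Glra2*, -0.057 to 0.12 for *Glra3*, -0.039 to 0.11 for *Glrb*, -0.13 to 0.15 for *Slc6a5* and -0.035 to 0.19 for *Slc6a9*.

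Leaving out 1 mouse raised the exact permutation p of the shares to 0.0625, the smallest that 5 mice allow. The *Glra1* share then differed by 53.8 to 55.2 points between hindbrain and forebrain, 34.2 to 38.6 between hindbrain and midbrain and 16.5 to 19.6 between midbrain and forebrain. The *Slc6a5* share differed by 22.02 to 22.9, 15.6 to 17.6 and 4.88 to 6.45 points, and the log2 ratio of alpha to beta subunit mRNA by 0.51 to 0.72 between midbrain and forebrain. Without both mice of replicate 3 these were 55.2, 34.6, 20.6, 21.6, 15.1, 6.50 and 0.74 in the same order, with an exact permutation p of 0.125. Over all genes, edgeR called 0, 1, 0 and 1 genes between genotypes in forebrain, midbrain, hindbrain and the sums, and DESeq2 31, 62, 59 and 26. Depth limits *Slc6a5* in forebrain, with 21 reads in all.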
